A study of Mus musculus with 2 samples.

Results

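Bmi1-independent uH2A signal and background shared by both libraries can each leave tags in a place where Bmi1 is missing. To describe such places, 1 kb windows of the mm8 autosomes were selected on the tags of both libraries. A window was kept when it held at least 10 tags in the Bmi1 null library and at least 8 in the wild-type library, with 1 tag allowed per position and strand. These thresholds were met by 1708 of the 2157021 autosomal windows that held a tag of either library. Since the members were chosen by their tag numbers, those numbers are given as a description and no test was made on them. Intervals printed for their ratios cover counting error only and were not used as a test.

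Both libraries were ChIP-Seq of mouse embryonic fibroblasts (MEFs) with the E6C5 antibody against uH2A. One came from Bmi1 wild-type cells and the other from Bmi1 null cells, both C57BL/6, derived from littermates and immortalized with TBX2, and neither received a further treatment. Depth was 6114925 tags in the wild-type library, of which 4096561 differed in position or strand, and 8020248 and 5253063 in the null library. There was 1 library per genotype, so no difference between the genotypes has a replicate check, and intervals are exact 95% intervals for counting error only. A library of unprecipitated chromatin was not used here, and neither were tags at Bmi1 itself, whose promoter position was not among those held.

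Monoubiquitylation of histone H2A is placed largely by Polycomb repressive complex 1, whose Ring1b subunit carries the ligase activity and whose Bmi1 subunit stimulates it. The mark is known from repressed promoters of developmental genes, many of which also carry H3K27me3, the mark of Polycomb repressive complex 2. Homologs of Bmi1 and other ligases can also modify H2A, and in short-read data a repeated or multiplied stretch of DNA can collect tags whatever the antibody.

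Among the promoters with a kept window, 5 are shown as sequence because the results below return to them. They are the promoter with the most tags (1600014C10Rik, listed with a pair of start sites), the next promoter of the class with H3K4me3 (Fkbp4), genes of the class with H3K27me3 (Cacna1i and Sox2) and a promoter from the study's list of promoters with a peak (Cebpa). The sequences are RefSeq promoters of GRCm38.p6 matched by gene symbol, read 5′ to 3′ on the strand of the gene, which is the minus strand for Fkbp4 and the plus strand for the others. Capitals mark CpG dinucleotides.
1600014C10Rik start site 1: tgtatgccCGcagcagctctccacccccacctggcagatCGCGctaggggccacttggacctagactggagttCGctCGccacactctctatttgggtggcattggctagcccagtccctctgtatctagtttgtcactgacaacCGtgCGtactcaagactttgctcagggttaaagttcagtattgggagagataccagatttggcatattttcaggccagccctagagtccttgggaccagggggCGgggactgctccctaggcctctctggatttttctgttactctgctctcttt
1600014C10Rik start site 2: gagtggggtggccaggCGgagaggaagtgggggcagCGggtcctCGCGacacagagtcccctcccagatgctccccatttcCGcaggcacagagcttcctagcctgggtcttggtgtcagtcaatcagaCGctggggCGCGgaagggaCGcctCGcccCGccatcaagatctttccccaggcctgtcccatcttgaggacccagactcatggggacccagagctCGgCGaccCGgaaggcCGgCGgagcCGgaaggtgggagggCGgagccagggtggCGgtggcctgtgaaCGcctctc
Fkbp4: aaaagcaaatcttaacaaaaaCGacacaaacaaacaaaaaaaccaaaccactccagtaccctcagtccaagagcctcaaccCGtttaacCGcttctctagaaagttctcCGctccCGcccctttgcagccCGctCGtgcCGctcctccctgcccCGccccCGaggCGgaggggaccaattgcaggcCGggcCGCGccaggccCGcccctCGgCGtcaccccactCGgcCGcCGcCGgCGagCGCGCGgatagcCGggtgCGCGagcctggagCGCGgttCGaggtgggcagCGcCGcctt
Cacna1i: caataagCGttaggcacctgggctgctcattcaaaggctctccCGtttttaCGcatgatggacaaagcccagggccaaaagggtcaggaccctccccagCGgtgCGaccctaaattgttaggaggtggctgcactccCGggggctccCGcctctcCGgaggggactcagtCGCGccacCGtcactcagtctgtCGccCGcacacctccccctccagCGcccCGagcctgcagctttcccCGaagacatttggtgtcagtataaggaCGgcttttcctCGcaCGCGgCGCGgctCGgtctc
Sox2: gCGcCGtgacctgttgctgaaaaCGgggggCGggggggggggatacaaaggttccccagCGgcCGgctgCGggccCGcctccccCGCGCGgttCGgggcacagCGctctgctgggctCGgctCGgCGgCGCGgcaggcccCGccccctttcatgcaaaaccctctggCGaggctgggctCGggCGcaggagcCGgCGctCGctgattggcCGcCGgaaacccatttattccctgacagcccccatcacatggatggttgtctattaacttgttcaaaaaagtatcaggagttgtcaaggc
Cebpa: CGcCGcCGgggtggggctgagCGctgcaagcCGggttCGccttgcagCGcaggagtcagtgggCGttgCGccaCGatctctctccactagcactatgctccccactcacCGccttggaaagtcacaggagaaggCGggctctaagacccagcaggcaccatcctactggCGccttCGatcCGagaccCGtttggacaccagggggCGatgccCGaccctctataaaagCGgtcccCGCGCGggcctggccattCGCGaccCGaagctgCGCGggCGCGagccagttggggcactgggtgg
The Fkbp4 sequence held 33 CpG dinucleotides in 300 bases, Cebpa 29, Sox2 27 and Cacna1i 23. At 1600014C10Rik the sequence of start site 1 had 8 and that of start site 2 had 20. The start sites used for counting tags are those of mm8 in the study's gene list, so the sequences show the genes and not the exact windows.

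Many kept windows were close to the thresholds, and 758 of them (44.4%) held at most 10 wild-type and at most 12 null tags. The median was 10 tags per window in the wild-type library (quartiles 9 and 13) and 11 in the null library (quartiles 10 and 13.2), with maxima of 695 and 659. For comparison, a window with a tag held on average 1.84 wild-type and 2.36 null tags. Of the kept windows, 154 lay on the edge itself with exactly 8 wild-type and 10 null tags, and 1137 held 10 to 12 null tags. Just outside, 452 windows had 10 or more null tags but 7 wild-type tags, and 781 had 8 or more wild-type tags but 9 null tags. In all, 24975 windows reached the wild-type threshold and 5119 the null threshold, so the kept windows were 6.84% of the former and 33.4% of the latter.

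To match the distinct autosomal totals of both libraries, wild-type counts were scaled by 1.28. Scaled in this way, wild-type over null counts per kept window had a median of 1.13 (quartiles 0.960 and 1.28). This scaled ratio lay within 2-fold of equality in 1657 windows, above that in 44 and below it in 7. This closeness follows in part from the rule, which asked for a minimum in both libraries. The plot of tags per window shows the windows lined up along the diagonal from the corner set by the thresholds.

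**Figure D1:**
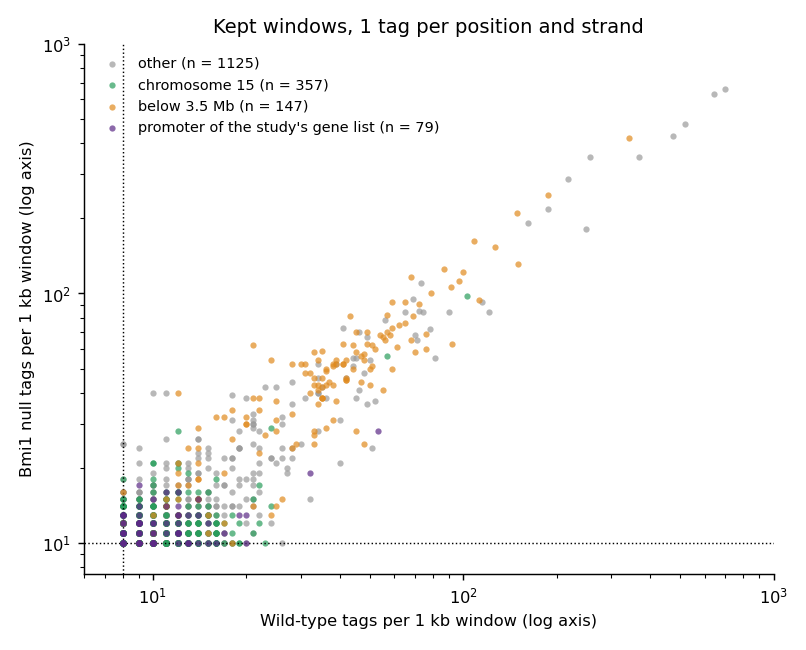
Distinct tags of the wild-type library (horizontal, log axis) against the Bmi1 null library (vertical, log axis), 1 point per kept window. Dotted lines mark the thresholds of 8 and 10 tags. Windows below 3.5 Mb (147) are colored first, then those at a promoter of the study's gene list (79), then other windows of chromosome 15 (357) and all others (1125). The windows with most tags are those below 3.5 Mb and a small set among the others. Most promoter windows lie close to the thresholds, while those of 1600014C10Rik, with 53 and 28, and 32 and 19 tags, lie further out.

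The kept windows were spread unevenly over the autosomes. Chromosome 15 held 383 of them, which is 4.05 per 1000 windows with a tag (3.66 to 4.48), and chromosome 11 held 224, or 13.1% of the kept windows (1.75 to 2.28 per 1000). The other chromosomes ran from 0.352 per 1000 on chromosome 4 to 1.20 on chromosome 19. Without chromosome 15 the autosomes had 0.642 per 1000 (0.608 to 0.678).

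On chromosome 15 most of these windows lay in the distal part of the chromosome, here divided at positions chosen after the values were seen. From 70 Mb on there were 333 kept windows, 10.3 per 1000 (9.20 to 11.4), and below 70 Mb there were 50, or 0.805 per 1000 (0.598 to 1.06). Between 75 Mb and 80 Mb there were 120 windows, with an interval of 20.7 to 29.9 per 1000. From 70 Mb on, a window held on average 1.89 times the autosomal mean in the wild-type library, against 1.07 times below 70 Mb. In the null library the step was smaller, 1.5 times against 1.15 times. Between 75 Mb and 80 Mb the level was 2.44 times the mean in the wild-type library and 1.72 times in the null library.

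This regional level was then measured around every kept window, as the mean of the windows in the same 1 Mb bin that were not kept, relative to such windows on all autosomes. At kept windows it had a median of 1.42 in the wild-type library and 1.20 in the null library, against 0.927 and 0.984 over all windows with a tag. Windows that reached the wild-type threshold only had nearly the same regional level, 1.44 and 1.20. When each count was divided by the regional level of its library, an alternative chosen after the data were seen, 565 of the 1708 windows still met the thresholds. On chromosome 15, 13 of the 383 did. Windows at a threshold fail at any level above 1, and 574 kept windows held exactly 10 null tags and 377 exactly 8 wild-type tags. A failure therefore does not by itself mark a tag-rich region. Conversely, a kept window passes by construction where the regional level is at most 1 in both libraries. Since 333 of the 383 windows of chromosome 15 lay from 70 Mb on, a tag-rich region stood around most of them. What raised the region in both libraries was not tested.

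**Figure D2:**
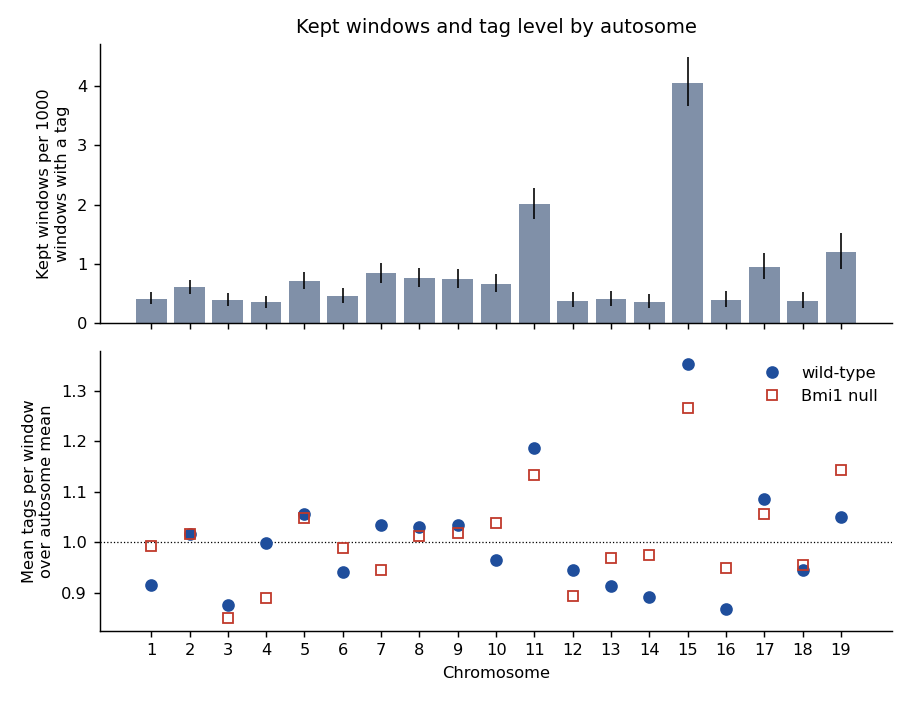
Top, kept windows per 1000 windows with a tag on each autosome, with exact 95% Poisson intervals for counting error. Bottom, mean distinct tags per window of each autosome relative to the mean of all autosomes, for the wild-type (filled circles) and Bmi1 null (open squares) library. Chromosome 15 is highest in both panels, at 4.05 kept windows per 1000 and levels of 1.35 and 1.27.

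The windows on chromosome 11 fell into 2 groups. Most of them, 143 of 224, lay from 3.5 Mb on at 1.28 per 1000 (1.08 to 1.51), with medians of 9 wild-type and 11 null tags. The other 81 lay below 3.5 Mb, where mouse assemblies begin next to the unsequenced centromeric end, and had medians of 39 and 50 tags. That stretch below 3.5 Mb had 491 windows with a tag, at 5.19 times the autosomal mean in the wild-type library and 4.72 times in the null library. Chromosome 9 had 27 kept windows below 3.5 Mb and chromosome 4 had 10. Over all autosomes, 147 kept windows on 12 chromosomes started below 3.5 Mb, a density of 20.8 per 1000 (17.5 to 24.4).

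At the thresholds used, most kept windows stood alone. There were 1493 runs of adjacent windows, of which 1404 were single windows, 62 were pairs and 13 held 3 windows. A neighbor within the set was found for 304 windows, which is 17.8% (95% Clopper-Pearson interval 16.0% to 19.7%), and 481 windows (28.2%) had another within 10 kb. The share with a neighbor depended on the settings. It was 10.8% with all tags kept and 44.1% with thresholds of 13 null and 10 wild-type tags. With tags without a mismatch it was 63.5%, so that most windows then had a neighbor. The median distance from one kept window to the next was 209 kb. By 1 Mb bins, 713 of 2410 held a kept window, and 54 bins with 5 or more held 669 windows.

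The longest run covered 71 windows on chromosome 11, from 3029001 to 3100000. It held 3139 wild-type and 3617 null tags, with 13 to 150 wild-type and 15 to 131 null tags per window, and its scaled ratio was 1.11. All 71 windows met the thresholds after division by the regional level, which was 1.42 and 1.20. That level leaves out kept windows, so the tags of the block itself did not enter it. This unbroken block alone gave 71 of the 304 windows that had an adjacent kept window.

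The next run covered 13 windows on chromosome 7, from 37892001 to 37905000, and begins at the promoter of 1600014C10Rik. Its tags numbered 332 in the wild-type and 276 in the null library, for a scaled ratio of 1.54. All 13 windows met the thresholds after division by the regional level, which again leaves out kept windows. Only 5.72% of its wild-type positions were also present in the null library. On chromosome 4, from 3007001 to 3013000, a run of 6 windows held 174 and 188 tags, with 7.47% of positions in both. In that run 62.6% of the wild-type and 81.4% of the null positions were on the plus strand.

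The remaining runs of 6 windows behaved differently from these. On chromosome 17, from 39451001 to 39457000, the run held 2948 wild-type and 2731 null tags, and 45.0% of the wild-type positions recurred in the null library. Its windows held a median of 454 null tags, against 20 in the run on chromosome 7 and 30.5 in that on chromosome 4. Denser windows share more positions by arithmetic alone, so these shares cannot be compared directly. On chromosome 9, from 3000001 to 3006000, the run held 283 and 390 tags at distinct positions but 2660 and 5514 tags in all, so that 89.4% and 92.9% were repeats of a position and strand. In this run on chromosome 9, 87.3% of the wild-type positions recurred in the null library, and 13.8% and 19.5% of positions lay on the plus strand. The same positions of 1 strand were therefore filled again and again in both libraries.

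The windows with most null tags belonged to few places. Of the 10 highest, 5 were windows of the run on chromosome 17, led by the window from 39452001 to 39453000, where 695 and 659 tags were counted in the wild-type and null libraries. The windows of chromosome 5 from 3000001 to 3001000 and from 3001001 to 3002000 held 343 and 418, and 188 and 248 tags. On chromosome 14 the window from 18209001 to 18210000 held 257 and 351 tags, with 221 and 287 of them on the plus strand. The windows of chromosome 2 from 98463001 to 98464000 and from 98467001 to 98468000 held 188 and 219, and 217 and 287 tags. In the latter, the repeats brought the totals to 5159 and 11005 tags, and 93.1% of the wild-type positions were also present in the null library. The 10 highest windows of each library held 13.8% of the distinct wild-type and 12.7% of the distinct null tags of the kept set.

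Promoters were compared next, using the 2 kb promoters of the study's gene list, of which the part used here holds 1999 CpG-rich promoters with H3K27me3 only or H3K4me3 only. A promoter of this list was overlapped by 79 of the 1708 kept windows, 4.63% (3.68% to 5.73%), where 0.263% of all windows with a tag overlap one. Among windows that reached the wild-type threshold only the share was 2.60% (2.40% to 2.81%), and with the null threshold only it was 2.96% (2.42% to 3.59%). Windows at CpG-rich promoters were thus more frequent in all the sets with many tags than among windows in general. The share of the kept set was 1.94% with all tags kept and 1.0% with tags without a mismatch. With thresholds of 13 null and 10 wild-type tags it was 3.12%. The sets with 1 threshold only were not recomputed under these settings. The place of the kept set above them is therefore known for the main setting only. Because the list is held in part and in sorted order, no overlap test was made.

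Of the 1928 autosomal promoters used, 75 held a kept window, the share of 3.89% being that of the list itself. Summed over the kept windows of a promoter, there were between 8 and 85 wild-type tags with a median of 10, and between 10 and 47 null tags with a median of 11. The promoter with 85 and 47 tags held 53 and 28 in its fullest window. On chromosome 15, 23 of 75 promoters held one, or 30.7% (20.5% to 42.4%), while elsewhere 52 of 1853 did, or 2.81% (2.10% to 3.66%). The regional level at the 23 promoters of chromosome 15 had a median of 2.09 in the wild-type and 1.53 in the null library.

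Divided by mark, 19 of 635 promoters with H3K27me3 only held a kept window, 2.99% (1.81% to 4.63%), and 56 of 1293 with H3K4me3 only, 4.33% (3.29% to 5.59%). Outside chromosome 15 the numbers were 9 of 604, or 1.49% (0.684% to 2.81%), and 43 of 1249, or 3.44% (2.50% to 4.61%). On chromosome 15 they were 10 of 31 and 13 of 44. The median of the fullest window per promoter was the same in both classes, 6 wild-type and 5 null tags.

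The promoter with most tags was that of 1600014C10Rik, on mm8 chromosome 7 from 37891304 to 37893304, a gene with H3K4me3 only. Its kept windows held 85 tags in the wild-type and 47 in the null library, with a scaled ratio of 2.32 (1.60 to 3.38). This interval and those of the ratios below cover counting error of counts selected by the rule, and they test no difference between the genotypes. It lies at the edge of the run of 13 windows described above, and the tags of its windows are part of that block. Fkbp4, a co-chaperone of steroid receptors, had 28 and 23 tags in 2 windows on chromosome 6, a ratio of 1.56 (0.866 to 2.83). Both genes met the thresholds after division by the regional level, with 2 windows each.

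Among the 20 promoters of the list with most tags, summed over their kept windows, 11 were on chromosome 15 and 5 carried H3K27me3 only. Fut8, on chromosome 12, tied with the last of these at 25 tags and is not among the 20. The counts of Celsr1, Mafa and Cacna1i cover 2 windows each. Celsr1, an atypical cadherin of planar cell polarity, held 33 wild-type and 23 null tags, a ratio of 1.84 (1.05 to 3.28). Mafa, a transcription factor of insulin-producing cells, held 22 and 25, a ratio of 1.13 (0.606 to 2.08). Cacna1i, a calcium channel subunit, held 18 and 20. The others of this class were Gm628, with 15 and 12 tags, and the homeobox gene Dbx2, with 16 and 10. All of these lie on chromosome 15, at regional levels of 1.40 to 2.39 in the wild-type library, and none met the thresholds after division by that level.

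The promoters with H3K4me3 only in this group came from varied functions. On chromosome 15 they were Tigd5 with 20 wild-type and 10 null tags, the tendon transcription factor Scx with 14 and 15, the neuronal gene Arc with 11 and 16, Letmd1 with 14 and 13, Mtdh with 13 and 13, and Grasp with 12 and 13. Of these, Mtdh was the one that met the thresholds after division. Elsewhere, AI842396 held 20 and 13 tags, 6330512M04Rik 12 and 16, Rpn1, a subunit of the oligosaccharyltransferase, 12 and 14, Pdzrn3 11 and 14, and Acad10 12 and 13. Cdc27, of the anaphase-promoting complex, and Myl4, a myosin light chain, have start sites that point away from each other and share 1 window, with 9 and 17 tags.

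Gene families were set by a pattern at the start of the symbol, so they leave out genes of like function with other names, such as Dbx2, Mafa and Scx above. Among symbols with a prefix of developmental transcription factors, such as Sox, Fox and Klf, 5 promoters of 61 held a kept window, or 8.20% (2.72% to 18.1%). The share over all promoters used was 3.89%. The 5 promoters were those of Sox2, Sox12, Sox30, Foxn4 and Klf13. Sox2, a factor of pluripotent and neural stem cells, held 10 tags in each library in a window downstream of its start. It carries H3K27me3 only here. Its regional level was 0.959 and 0.879, so it met the thresholds after division by construction. Klf13 held 13 wild-type and 10 null tags, and Sox12, Sox30 and Foxn4 each held 8 and 10, the lowest numbers the rule allows. The medians of the fullest window over the 61 promoters were 7 and 6 tags, close to those of all promoters.

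Of 65 promoters with a prefix of channels and receptors, 4 held a kept window, those of Cacna1i, Grin2a, Gpr120 and Gpr155. Grin2a, a subunit of the NMDA receptor, held 12 and 11 tags. At its regional level of 0.945 and 0.961 it met the thresholds after division by construction. Gpr120 held 8 and 12 tags, and Gpr155 held 9 and 10. Of 20 Wnt, Fgf, Bmp and Tgf ligands, 2 held a kept window, or 10.0% (1.235% to 31.7%). They were Wnt7b with 13 and 10 tags and Wnt9a with 8 and 11. Among 53 genes with a zinc finger prefix followed by a number 1 held a kept window, or 1.89% (0.0478% to 10.1%). It was Zfp3, with 9 and 10 tags. Zfpm1, with 8 and 13 tags, lies outside this pattern and was named after its values were seen. Of 41 genes of core cell functions, 6 cadherins, 5 histone genes and 3 Polycomb genes, 0 held a kept window, which for the core genes allows a share of up to 8.60%. None of the 13 fibroblast markers had a promoter in the parts of the lists used here. With such numbers the intervals of these families overlap that of all promoters.

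In the study's list of promoters with a peak, 8 of the 1708 kept windows overlapped a promoter, 0.468% (0.202% to 0.921%), where 0.0898% of all windows with a tag do. With the wild-type threshold only the share was 1.59% (1.44% to 1.76%), and with the null threshold only it was 0.352% (0.182% to 0.614%). These peaks were called where wild-type tags exceeded null tags in the same libraries, so these shares are not independent of the rule. The promoters were those of Etnk2, an ethanolamine kinase, Cebpa, Trio, Galnt6, Timm13, Pkp1, Zfp106 and Smpd2. Etnk2 held 14 wild-type and 26 null tags, a ratio of 0.689 (0.333 to 1.37), and met the thresholds after division.

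Cebpa, a transcription factor of fat and myeloid cells, and Trio, a guanine nucleotide exchange factor, each held 14 and 10 tags. Galnt6, which is also in the gene list with H3K27me3 only, held 9 and 12. Timm13 of the mitochondrial import machinery and the desmosomal protein Pkp1 each held 8 and 12, Zfp106 held 9 and 10, and Smpd2 held 8 and 10. Of the 9 genes of the study's ChIP-qPCR with a promoter in this list, Cebpa was the one with a kept window. The fullest window of the others ran from 5 wild-type and 3 null tags at Arpc3 to 18 and 5 at B4galnt1. At Gfod2 it held 15 and 1, at Zfp12 13 and 4, at Dcxr 9 and 6, at Iars 9 and 3, at Chmp2a 8 and 3 and at Fgf6 6 and 1. Promoters of Mta2, Hbb2 and Ppara were in neither list as used here.

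Deposited peaks anywhere were overlapped by 5 of the kept windows, 0.293% (0.0951% to 0.682%), where 1.42% of all windows with a tag overlap one, 17.3% of those with the wild-type threshold only and 0.498% of those with the null threshold only. All these peaks were called on an excess of wild-type over null tags in the same libraries. The shares are therefore not independent of the rule, which asks for null tags. The place of the kept set below all windows depended on the treatment of repeats, since with all tags kept the share was 1.88%. The window at Zfp106 was among them, while the windows at the other 7 promoters of the list with a peak lay outside the peak itself. Overlaps ran from 264 bp to 768 bp. On chromosome 15 the window from 12871001 to 12872000 held its whole peak, and the other 4 windows held a part of theirs.

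Around the start sites of the gene list, tags of both libraries were highest in the 200 bp bin that begins at the start. At the 75 promoters with a kept window this bin held 2.17 wild-type tags per promoter (1.85 to 2.53) and 2.45 null tags (2.11 to 2.83), which is 3.39 and 3.81 times the level beyond 3 kb. At the 1853 promoters without one it held 1.38 (1.33 to 1.44) and 1.21 (1.16 to 1.26), or 3.00 and 2.28 times. The promoters with a kept window were selected on these tags, so their height is given as a description. A rise at the start was also present in the null library at promoters that the rule left out.

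**Figure D3:**
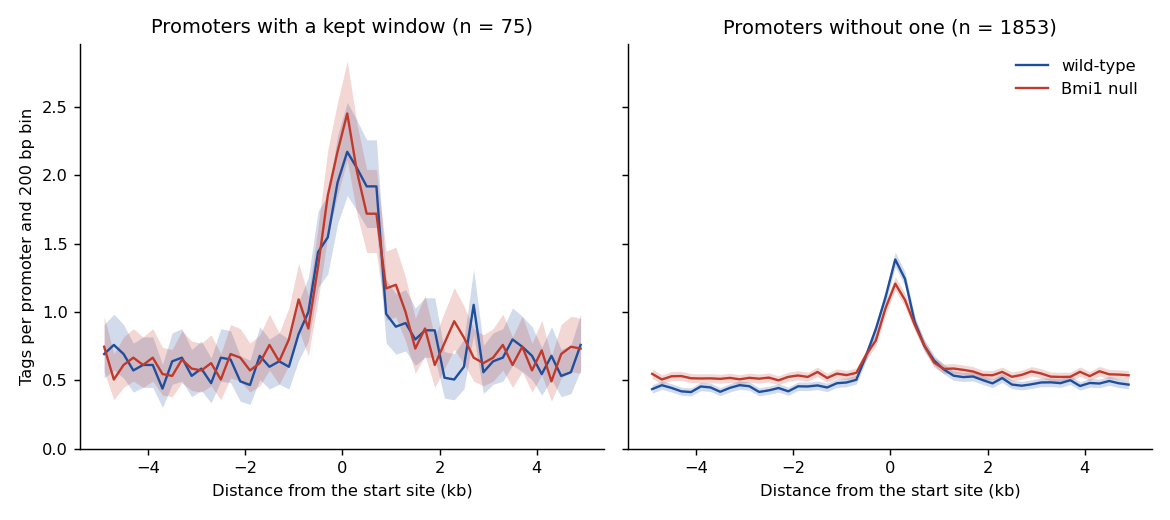
Distinct tags per promoter in 200 bp bins by distance from the start site (kb, downstream to the right) at promoters of the study's gene list with (left, n = 75) and without (right, n = 1853) a kept window. Lines are the wild-type and Bmi1 null libraries and bands are 95% Poisson intervals. Both libraries peak at the start, at 2.17 and 2.45 tags on the left and 1.38 and 1.21 on the right.

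Features that the rule did not use were compared next. Repeated tags, which are further copies of a position and strand already filled, made up 67.1% of the wild-type and 75.6% of the null tags in all kept windows, against 33.2% and 34.6% in all windows with a tag. This excess came from the windows with many tags. Pooled over tags, the repeats were 81.5% and 87.8% with 50 or more null tags (98 windows). With 20 to 49 (133 windows) they were 69.3% and 76.2%, and with 13 to 19 they were 40.7% and 41.4%. The median window was lower, at 56.0% in both libraries with 50 or more null tags and at 41.0% and 38.9% with 20 to 49. Of the 98 windows, 49 had over 50% repeats in both libraries. With 10 to 12 null tags the pooled repeats were 32.6% and 29.1%, close to the level of all windows.

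Positions present in both libraries were counted next. Of the distinct wild-type positions in kept windows, 24.8% (24.3% to 25.3%) were also filled in the null library, against 1.44% in windows with the wild-type threshold only and 5.43% with the null threshold only. The share was 52.1% with 50 or more null tags, 28.1% with 20 to 49, 13.5% with 13 to 19 and 5.09% (4.70% to 5.51%) with 10 to 12. Denser windows share more positions by arithmetic alone, and tags spread evenly over these windows would share 13.6%, 1.90%, 0.767% and 0.546% in the same order. With 10 to 12 null tags the share was 9.33 times that of even placement, close to 8.83 over all windows with a tag and 9.48 with the null threshold only, and above 6.71 with the wild-type threshold only. It was 17.6 times with 13 to 19 null tags and 14.8 times with 20 to 49. With 50 or more it was 3.82, but there the high share under even placement caps the ratio, so this class cannot be ranked with the others. At promoters of the gene list the share was 2.44% (1.54% to 3.67%), or 3.83 times that of even placement. The share over all kept windows depended on the settings, being 9.13% with all tags kept, 40.1% with thresholds of 13 null and 10 wild-type tags, and 38.1% with tags without a mismatch.

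Strand balance was near equality in most kept windows. Over all of them 48.6% of the distinct tags of each library were on the plus strand. A window was called one-sided when less than 20% or more than 80% of its tags were on the plus strand, which applied to 121 windows in the wild-type library, 7.08% (5.91% to 8.41%), and to 141 in the null library, 8.26% (6.99% to 9.66%). With 10 to 12 null tags it was 4.22% and 5.63%, but with 50 or more, where counting error makes such a share least likely, it was 34.7% (25.4% to 45.0%) and 30.6% (21.7% to 40.7%). At promoters of the gene list 1 and 3 of 79 windows were one-sided.

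Tags without a mismatch made up 36.1% of the wild-type and 34.7% of the null tags in kept windows, against 43.0% and 44.9% over all windows with a tag. With 50 or more null tags the shares were 32.9% and 31.5%, with 10 to 12 they were 45.9% and 49.7%, and in the null library on chromosome 15 it was 52.0%. Windows with many tags in both libraries thus also held more tags that differ from the reference.

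**Figure D4:**
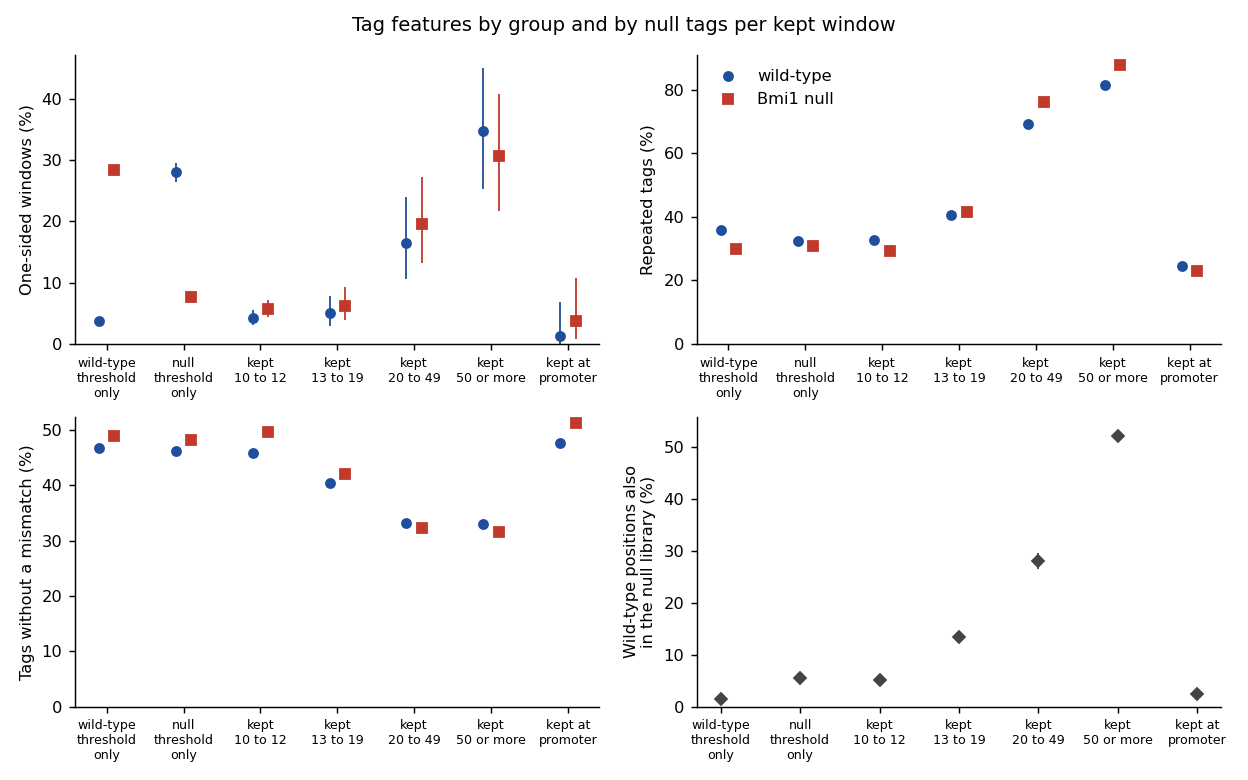
Features not used by the rule, for windows that reached 1 threshold only, for kept windows by their number of null tags, and for kept windows at a promoter of the study's gene list. Panels give the percentage of one-sided windows and of wild-type positions also found in the null library (both with 95% Clopper-Pearson intervals), and the percentage of repeated tags and of tags without a mismatch. With 50 or more null tags, 52.1% of positions were shared and over 80% of tags repeated. Windows with 10 to 12 null tags shared 5.09% of positions, against 1.44% with the wild-type threshold only and 5.43% with the null threshold only. One-sided windows are more frequent where a library has few tags, as on the left for the library below its threshold.

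Distances from a plus-strand 5′ end to a minus-strand 5′ end gave a further view of the tags. Maxima were sought between 50 and 400 bp, after smoothing over 21 bp, and are given relative to the mean of that range. Within it, pairs in kept windows with 10 to 19 null tags were most frequent at 135 bp in both libraries, at 1.53 and 1.39 times. For windows with the wild-type threshold only the wild-type maximum was at 141 bp with 1.66 times. In kept windows with 20 or more null tags the maximum within that range was weak, 1.14 times at 118 bp and 1.16 times at 77 bp. Tags that covered exactly the same 25 bp on both strands were frequent in kept windows, at 5.90 and 6.27 times the mean with 10 to 19 null tags, and at 2.32 and 2.74 times with 20 or more. In windows with the null threshold only the values were 3.43 and 2.10, and with the wild-type threshold only 1.59 and 1.82. The kept windows with fewer tags thus held both a preferred spacing of the strands between 50 and 400 bp and many coinciding places.

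The flanks of kept windows were moderately raised. From 1 to 5 kb away, windows that reached neither threshold held 2.65 wild-type tags per kb (2.62 to 2.67) and 3.04 null tags (3.01 to 3.07), 1.44 and 1.29 times the autosomal mean. From 6 to 10 kb they still held 2.51 and 2.85, so the decline was shallow beyond the adjacent kb. Around windows with the wild-type threshold only the wild-type flank was 2.77 (2.76 to 2.77) and the null flank 3.00 (2.99 to 3.01). These flanks compare with medians of 10 and 11 tags in the kept windows themselves. Around kept windows, with only other kept windows left out, the flanks up to 5 kb held 3.35 wild-type and 3.38 null tags per kb.

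**Figure D5:**
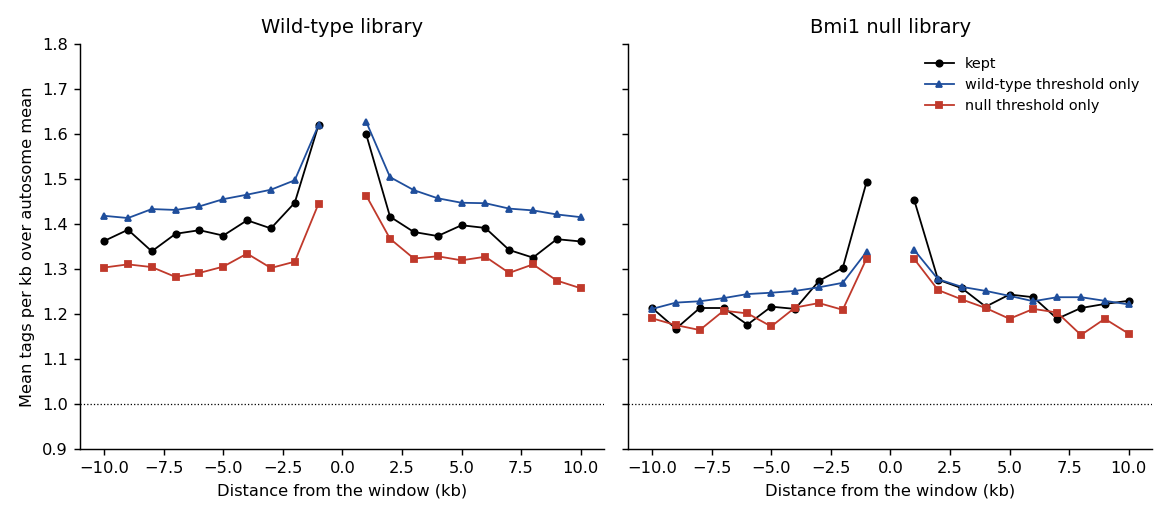
Mean distinct tags per kb relative to the autosomal mean (vertical) by distance in kb from the window (horizontal) in the wild-type (left) and Bmi1 null (right) library, around kept windows and windows that reached 1 threshold only. The window itself and any neighbor that reached a threshold are left out. Next to kept windows the levels are 1.61 and 1.47 over both sides, and at 6 to 10 kb 1.36 and 1.21.

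To bring these features together, kept windows were counted that were one-sided in either library (198), had over 50% repeats in both (121), shared at least 20% of their wild-type positions (288) or began below 3.5 Mb (147). None of these applied to 1260 windows, 73.8% (71.6% to 75.8%), and these limits were set after the values had been seen. By level the share was 85.8% with 10 to 12 null tags and 1 of 98 windows with 50 or more. The limit on shared positions was not corrected for density. Even placement alone would share 13.6% of positions with 50 or more null tags and 0.546% with 10 to 12, so these levels cannot be compared directly. The share of windows to which none applied was 92.7% on chromosome 15, 93.7% (74 of 79) at promoters of the gene list and 8 of 8 at promoters with a peak. Of the 1260 windows, 222 also met the thresholds after division by the regional level, and 8 of these were on chromosome 15.

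Division by the regional level left 565 of the 1708 kept windows, or 33.1%. Among the 75 promoters of the gene list it left 14, which were 12 of 56 with H3K4me3 only and 2 of 19 with H3K27me3 only. They were 1600014C10Rik, Fkbp4, AI842396, 6330512M04Rik, Mtdh, Pdzrn3, Acad10, Fut8, Grin2a, Spred2, Lrig3, Casd1, Sox2 and Rdx, of which Mtdh lies on chromosome 15. At Pdzrn3, Fut8, Grin2a, Lrig3, Casd1, Sox2 and Rdx the regional level was below 1 in both libraries, so these passed by construction. The list covers promoters with a kept window, and promoters that met the thresholds only after division are not in it. Signal from the antibody without Bmi1 and background common to both libraries cannot be told apart at these places, since each genotype has 1 library and no library of unprecipitated chromatin was used.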

How the data were processed

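Per the labels and the study's methods, chromatin was sonicated and digested with micrococcal nuclease, and 25 bp tags were mapped to mm8, with tags lacking a unique best place left out. The deposited tags are 1 line each, with position, strand and up to 2 mismatches and with no normalization. Their score column, a placeholder of 0, was not used. In the peak file the deposited counts are wild-type tags per peak. Its fold and p-value columns, the authors' enrichment of wild-type over null tags, were not used.

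Tags were placed by their BED start, 1 per position and strand, and counted in 1 kb windows with Python 3.11.15, numpy 2.4.6, pandas 2.3.3 and scipy 1.17.1. Counting was tested on simulated data. Alternatives were all tags, shifted 5′ ends, a shifted grid, higher thresholds, tags without a mismatch, a thinned null library, and sets without chromosome 15, without chromosome starts or after division by regional level. Intervals are Poisson or Clopper-Pearson at 95%. Promoters came from the study's gene list, of which 1999 genes were used and 17543 were not, and from its list of promoters with a peak. Members and lists were chosen with earlier results of these data known. Genes named are the 20 and 10 promoters with most tags in kept windows (8 were found for the latter), ChIP-qPCR genes and members of families with a kept window. Windows named are the 10 with most null tags and the 5 longest runs. Promoters left after division, and windows in peaks, were named after their values were seen. The comparison of GC content at promoters was void, since 59 of 75 genes (78.7%) had a sequence. Repeat annotation of windows was not used here.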

Additional observations from a re-analysis of the deposited data

Results flagged for a closer look

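Chromosome X was outside the rule, which takes autosomes. Counted in the same way, 31 of its 116208 windows with a tag held 10 or more null and 8 or more wild-type tags. Over all autosomes 1708 of 2157021 windows did, or 0.792 per 1000, so such windows were less frequent on chromosome X. The 31 windows are listed because they meet both thresholds in data that the comparisons of the report do not use. Whether they hold signal of the antibody or background was not tested.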

How the results depend on the processing

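Results were recomputed under each alternative, 92 values in all, and 48 of them changed by less than a limit while 44 moved further. The limit was 1.5 times for the number of windows and the 95% interval for counting error otherwise. Placing each 5′ end at the center of its fragment, moving the grid by 500 bp, or thinning the null library to the wild-type total with 8 or more tags in each moved no main result beyond its limit. The members changed more, since 77.1% of the kept windows met the thresholds with tags at fragment centers and 81.0% with the thinned library. The 4 main results are the number of windows, the share at a promoter of either list and the share next to another kept window.

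With all tags kept, 16096 windows met the thresholds, 1.94% were at a promoter of the gene list and 10.8% were next to another. With 13 or more null and 10 or more wild-type tags the values were 449, 3.12% and 44.1%. With tags without a mismatch only they were 200, 1.0% and 63.5%. The first and last of these settings change the number of tags by construction, and the higher thresholds select fewer windows. The 3 alternatives that follow were chosen after seeing the data. Without chromosome 15, 19.7% of windows were next to another, and without windows below 3.5 Mb 11.1% were. With counts divided by the level of the 1 Mb bin, 696 windows met the thresholds, 3.59% at a promoter of the gene list and 35.2% next to another. In each case the cause was not tested. The share that overlaps a deposited peak went from 0.293% to 1.88% with all tags kept and to 0 with the higher thresholds and without mismatches. The share at promoters with a peak was 0.468% and fell to 0.242% with all tags, 0.223% with the higher thresholds and 0.287% after division. This is within the interval of 0.202% to 0.921%, which rests on 8 windows and is too wide to register such a fall. Depth limits single windows, since a median kept window holds 10 wild-type and 11 null tags, and 1 tag fewer would remove many. No paired analysis was possible because each genotype has 1 library.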
